A study of Mus musculus with 2 samples.

Results

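The 10 genes described here are the transcription factors Atf4, Atf5 and Ddit3, their targets Trib3, Chac1 and Asns, and the serine and one-carbon enzymes Phgdh, Psat1, Shmt2 and Mthfd2. They were taken by gene symbol from the deposited transcript table, which holds 24542 symbols, and read counts were summed per symbol. All 10 passed the filter on low counts, as did 14466 genes of the table. The samples were remote left ventricle, freed of scar and border, from male C57BL/6 mice 7 days after permanent ligation of the left anterior descending coronary artery. NRK-2 KO mice, which lack a muscle kinase that feeds NAD synthesis from nicotinamide riboside, were compared with littermate Control mice, and both genotypes had the infarct. The labels list 1 sample per genotype and give neither an age nor the construction of the allele. The table holds 3 libraries per genotype, called here KO 1 to 3 and control 1 to 3.

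ATF4 is the main transcription factor of the integrated stress response. Kinases that sense amino acid shortage, misfolded protein or mitochondrial damage phosphorylate the translation factor eIF2, which slows protein synthesis in general and lets ATF4 be translated, so that the Atf4 transcript need not follow the protein. ATF4 and its relatives switch on amino acid synthesis and transport. Among their best known targets are the enzymes that make serine and those that pass its hydroxymethyl carbon to folate inside mitochondria, and in mice the same enzymes are known to be induced in hearts with defective mitochondria. The last of them, Mthfd2, uses NAD as its cofactor.

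Among the members, 1 rose and 0 fell in the libraries labelled knockout. Mthfd2, the mitochondrial folate dehydrogenase, rose 2.47-fold, and it was the only member past the threshold of 0.05 in edgeR's quasi-likelihood test (adjusted p = 0.0335, by Benjamini and Hochberg's method over all genes tested). Of all genes tested, 3.7% passed, 2.61% as risers and 1.09% as fallers. Asns was 1.84-fold as high and Shmt2 was 0.714-fold as high in the libraries labelled knockout, and neither passed (adjusted p = 0.0918 and 0.085). None of the 3 transcription factors passed, and Atf4 was at 91.2 ± 10.9 CPM in knockout and 88.6 ± 14.0 CPM in control (SD, n = 3 libraries each; CPM are counts per 1000000 reads, the library total being multiplied by a TMM factor). The median log2 fold change, knockout over control, was 0.10 over the 10 members and 0.01 over all genes tested.

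The libraries were not alike, and 1 went against its label. They held 26975513 to 33086384 counted reads in knockout and 22377348 to 22831189 in control. Nmrk2, the targeted gene, was at 0.252 CPM in KO 2 and had 0 reads in KO 3, but stood at 27.9 CPM in KO 1, above the 4.79 to 15.1 CPM of the control libraries. Each of the 9 ventricular myocyte markers was detected in every library, but summed they came to 36195 to 55796 CPM in knockout and 58768 to 93395 CPM in control. The 8 fibroblast markers summed to 28657 to 39767 CPM in knockout and 6547 to 18025 CPM in control. Of the 8, 6 had every knockout library above the control libraries, while Dcn and Pdgfra overlapped. The atrial light chain Myl7 was at 127, 1.15 and 0.217 CPM in KO 1, 2 and 3 and at 205, 162 and 0 CPM in control 1, 2 and 3. It is 1 of 6 atrial markers, which summed to 2502 to 3175 CPM in knockout and 151 to 1018 CPM in control. Nppa and Dkk3 had every knockout library above the control libraries. Myl4, Myl7 and Sln overlapped, and Bmp10 had 0 reads. Lung markers summed to 445 CPM in KO 2 and to at most 17.2 CPM elsewhere. Adipocyte markers summed to 903 CPM in control 3 and to 2.30 CPM in KO 3, and B cell markers to 212 CPM in control 3. In bulk tissue, fewer cells of a type and less RNA per cell cannot be told apart. Whether each library stands for its own animal is not stated in the labels. The p-values therefore rest on the spread between these 6 libraries alone, and that spread may be technical.

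Promoters of 4 members are shown because their genes differ in the sequence that ATF4 is known to bind together with C/EBP proteins, the C/EBP-ATF response element. The letters TGATGNAA were searched on both strands from 250 bases before to 50 bases after each RefSeq start site. A match was found in 3 of 10 members, Asns, Chac1 and Trib3, and in 4.51% of all 27025 genes with a promoter in the table. These 3 are on the list as known targets, so the larger share among the members tests nothing. Mthfd2, the riser, had no match in this window, and neither had the remaining 6 members. The sequences are RefSeq's (GRCm38.p6), written along the gene's strand, with the match in capitals. Those of Asns, Chac1 and Mthfd2 are the 250 bases before the start site, and that of Trib3 is a stretch of 30 bases round its match, which lies just inside the RefSeq start.
Asns (chr6:7693210-7693459, minus strand): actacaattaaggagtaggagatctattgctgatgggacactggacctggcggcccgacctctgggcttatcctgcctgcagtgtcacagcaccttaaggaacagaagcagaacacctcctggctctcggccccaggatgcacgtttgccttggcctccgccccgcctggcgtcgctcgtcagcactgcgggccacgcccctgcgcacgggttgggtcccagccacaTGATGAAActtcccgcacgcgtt
Chac1 (chr2:119350992-119351241, plus strand): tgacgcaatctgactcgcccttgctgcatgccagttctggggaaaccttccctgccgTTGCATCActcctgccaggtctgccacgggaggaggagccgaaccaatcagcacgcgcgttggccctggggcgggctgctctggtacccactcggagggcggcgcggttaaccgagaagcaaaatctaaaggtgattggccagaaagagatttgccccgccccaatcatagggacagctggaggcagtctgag
Trib3 (chr2:152344028-152344057, minus strand): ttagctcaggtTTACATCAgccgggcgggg
Mthfd2 (chr6:83317605-83317854, minus strand): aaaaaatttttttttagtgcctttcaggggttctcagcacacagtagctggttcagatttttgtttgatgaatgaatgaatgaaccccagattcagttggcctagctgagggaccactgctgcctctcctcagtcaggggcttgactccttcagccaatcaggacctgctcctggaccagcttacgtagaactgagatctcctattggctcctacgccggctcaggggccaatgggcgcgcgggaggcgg

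The transcription factors were examined first. Atf4 (gene ID 11911, chromosome 15 from 80255184 to 80257545 in mm10, plus strand) was at 101, 93.0 and 79.5 CPM in KO 1, 2 and 3 and at 103, 88.0 and 74.9 CPM in control 1, 2 and 3. The genotypes overlapped throughout, and the log2 fold change was 0.04 with an SE of 0.16 (adjusted p = 0.896 by edgeR). Per length, Atf4 was the most abundant member, at 53.8 ± 6.91 FPKM in knockout and 48.4 ± 4.45 FPKM in control (SD, n = 3 libraries each; deposited values).

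Ddit3 (gene ID 13198, chromosome 10 from 127290793 to 127296288, plus strand) encodes CHOP, a factor that ATF4 induces under lasting stress and that promotes cell death. It was at 11.8, 11.8 and 11.6 CPM in KO 1, 2 and 3 and at 13.7, 8.62 and 10.3 CPM in control 1, 2 and 3. The knockout libraries lay close together inside the range of the control libraries, and the gene did not reach the threshold (edgeR's adjusted p = 0.762, log2 fold change 0.11, SE 0.20). It overlaps Mars, on the opposite strand, by 68 bases. The kit keeps strand, but whether the authors' counts used it is a detail not given in the sources used here.

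Atf5 (gene ID 107503, chromosome 7 from 44812256 to 44816658, minus strand) encodes a relative of ATF4 that is linked to the mitochondrial unfolded protein response. It was at 19.4, 15.0 and 18.2 CPM in KO 1, 2 and 3 and at 19.2, 16.7 and 13.5 CPM in control 1, 2 and 3. The genotypes overlapped, and the log2 fold change was 0.09 with an SE of 0.18 (adjusted p = 0.786 by edgeR). Atf5 overlaps Nup62 by 571 bases and Il4i1 by 272 bases, both on the opposite strand.

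The feedback genes were low and scattered. Trib3 (gene ID 228775, chromosome 2 from 152337425 to 152344060, minus strand), a pseudokinase that ATF4 and CHOP induce and that restrains them, had 75, 80 and 88 reads in KO 1, 2 and 3 (2.59, 2.24 and 3.21 CPM) and 52, 65 and 25 reads in control 1, 2 and 3 (2.55, 3.13 and 1.01 CPM). Control 3 was lowest and the other libraries overlapped (edgeR's adjusted p = 0.762, log2 fold change 0.27, SE 0.47). Chac1 (gene ID 69065, chromosome 2 from 119351242 to 119354327, plus strand), which degrades glutathione, had 58, 58 and 151 reads in KO 1, 2 and 3 (2.003, 1.62 and 5.51 CPM) and 37, 93 and 79 reads in control 1, 2 and 3 (1.82, 4.48 and 3.21 CPM). The highest and the lowest library were both labelled knockout, and the gene did not reach the threshold (edgeR's adjusted p = 0.962, log2 fold change -0.06, SE 0.58). The sign of so small a value turned with the scaling, to 0.03 with library totals alone.

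**Figure D1:**
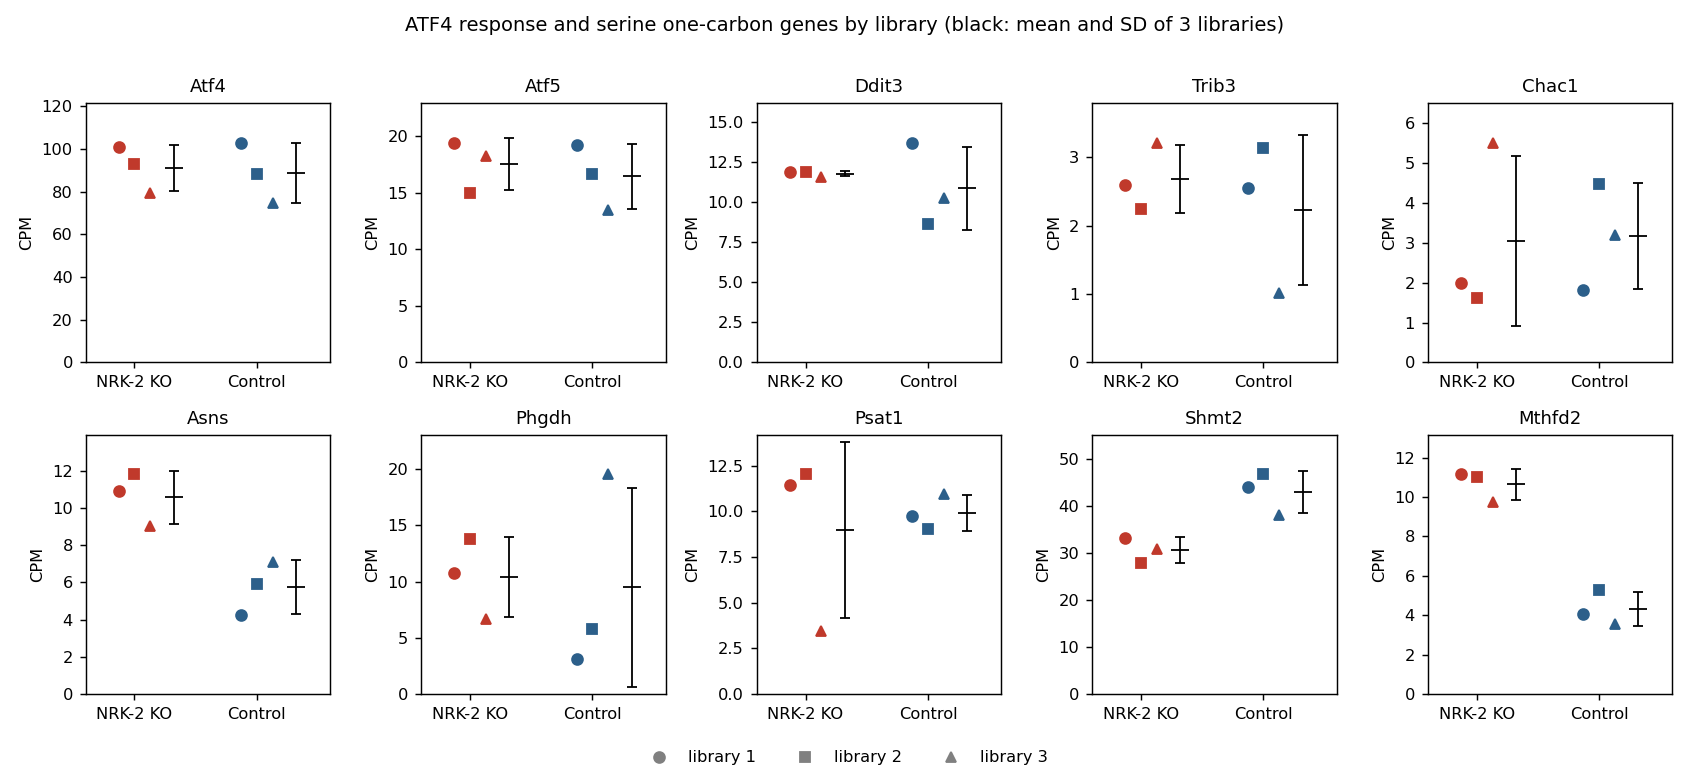
CPM of the 10 members in each library, NRK-2 KO (red) left of Control (blue), with the library number as the symbol and the mean and SD of 3 libraries in black; each panel starts at 0. Mthfd2 and Asns are higher in every knockout library than in any control library and Shmt2 is lower, while the other members overlap.

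Asns (gene ID 27053, chromosome 6 from 7675171 to 7693182, minus strand), asparagine synthetase, is the textbook gene of the amino acid response, and the match in its promoter printed above ends 16 bases before the RefSeq start site. It was at 10.9, 11.8 and 9.02 CPM in KO 1, 2 and 3 and at 4.22, 5.93 and 7.10 CPM in control 1, 2 and 3. Each knockout library lay above each control library, with means of 10.6 ± 1.43 CPM in knockout and 5.75 ± 1.45 CPM in control (SD, n = 3 libraries each). The log2 fold change of 0.88 (SE 0.25) did not pass edgeR's test (adjusted p = 0.0918), and leaving out any 1 library other than control 3 gave an adjusted p of 0.144 to 0.291 and a log2 fold change down to 0.70. Without control 3 it was 1.06 and passed (adjusted p = 0.0291), as did 24.6% of all genes tested in that fit.

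Serine synthesis starts from a glycolytic intermediate with Phgdh, its first enzyme, and goes on with the aminotransferase Psat1. Phgdh (gene ID 236539, chromosome 3 from 98313171 to 98339969, minus strand) was at 10.7, 13.8 and 6.68 CPM in KO 1, 2 and 3 and at 3.14, 5.73 and 19.6 CPM in control 1, 2 and 3. Control 3 held 482 reads against 64 and 119 in control 1 and control 2, a 6.23-fold range of CPM within a genotype and the widest of the 10 members. The log2 fold change was 0.13 with an SE of 0.65 (adjusted p = 0.921 by edgeR). It was 1.23 without control 3, which did not pass either (adjusted p = 0.0693), and -0.28 without control 1.

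Reads of Phgdh are less certain than those of the other members. Its transcripts matched those of 22 other GENCODE genes over at least 200 bases at 90% identity or more, 20 of them processed pseudogenes. Only 2 of these copies are in the deposited table, both with 0 reads. Psat1 and Shmt2 each had 1 such copy, and the other 7 members had none.

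Psat1 (gene ID 107272, chromosome 19 from 15905123 to 15925059, minus strand) was at 11.5, 12.0 and 3.43 CPM in KO 1, 2 and 3 and at 9.76, 9.01 and 10.95 CPM in control 1, 2 and 3. KO 3, with 94 reads, stood below every other library, and the gene did not reach the threshold (edgeR's adjusted p = 0.872, log2 fold change -0.14, SE 0.44). The log2 fold change was 0.24 without KO 3. The ratio of Phgdh to Psat1 reads was 0.937, 1.15 and 1.95 in KO 1, 2 and 3 and 0.322, 0.636 and 1.79 in control 1, 2 and 3, so that the first steps of the pathway did not keep a fixed proportion from library to library.

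The libraries that stood apart for these enzymes also stood apart for adipocyte markers. The 5 markers summed to 232, 428 and 2.30 CPM in KO 1, 2 and 3 and to 114, 57.4 and 903 CPM in control 1, 2 and 3. KO 3, lowest for the markers, was lowest for Psat1 among all libraries and for Phgdh among the knockout libraries, and control 3, highest for the markers, was highest for Phgdh. Psat1 lay between 9.01 and 10.95 CPM in the control libraries while the markers ran from 57.4 to 903 CPM. Control 3 was also highest for B cell markers. The part of adipose tissue or of other cells in the levels of Phgdh and Psat1 was not tested.

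**Figure D2:**
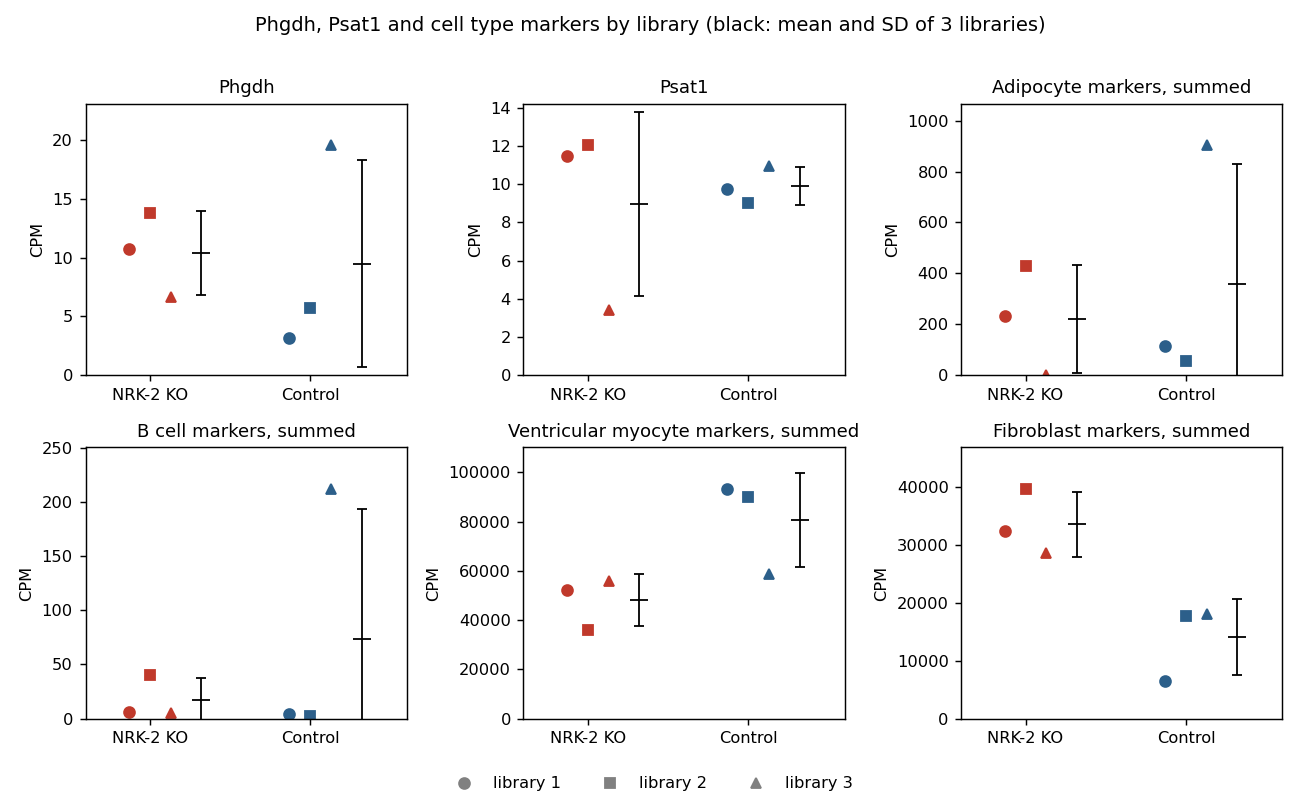
CPM of Phgdh and Psat1 and summed CPM of 4 marker lists in each library, NRK-2 KO (red) left of Control (blue), with the library number as the symbol and the mean and SD of 3 libraries in black (bars that reach below 0 are cut there). Control 3 is highest for Phgdh (19.6 CPM) and for adipocyte markers (903 CPM), and KO 3 is lowest for Psat1 (3.43 CPM) and for adipocyte markers (2.30 CPM).

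The mitochondrial enzymes that take over the carbon of serine stood on opposite sides. Shmt2 (gene ID 108037, chromosome 10 from 127517123 to 127522444, minus strand) splits serine into glycine and a folate-bound carbon, and it overlaps Ndufa4l2, on the opposite strand, by 32 bases. It was at 33.2, 27.8 and 30.9 CPM in KO 1, 2 and 3 and at 43.9, 46.7 and 38.0 CPM in control 1, 2 and 3. Each knockout library lay below each control library, with means of 30.6 ± 2.71 CPM in knockout and 42.9 ± 4.45 CPM in control (SD, n = 3 libraries each). The log2 fold change of -0.49 (SE 0.13) did not pass edgeR's test (adjusted p = 0.085), and leaving out any 1 library other than control 3 gave an adjusted p of 0.167 to 0.283. In the fit without control 3, in which 24.6% of all genes tested passed, it was -0.56 and passed (adjusted p = 0.0253).

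Mthfd2 (gene ID 17768, chromosome 6 from 83305704 to 83317604, minus strand) oxidises the folate-bound carbon in the next step. GENCODE places Gm43890, an unverified transcript of the same strand that is not listed in the deposited table, over 2799 of its bases. It had 323, 393 and 267 reads in KO 1, 2 and 3 and 83, 109 and 88 reads in control 1, 2 and 3, or 11.2, 11.002 and 9.75 CPM in knockout and 4.07, 5.25 and 3.57 CPM in control. The knockout libraries lay within a 1.14-fold range and all stood above the control libraries, with means of 10.6 ± 0.771 CPM in knockout and 4.30 ± 0.863 CPM in control (SD, n = 3 libraries each). The log2 fold change was 1.31 with an SE of 0.22 (adjusted p = 0.0335 by edgeR). KO 1, the library in which Nmrk2 went against its label, had the highest Mthfd2 level, and the log2 fold change without it was 1.27. The call rested on having all libraries or on leaving out control 3. EdgeR's adjusted p was 0.0188 without control 3, 0.108 on leaving out control 1 and 0.0895 on leaving out control 2. It was 0.117, 0.135 and 0.091 on leaving out KO 1, 2 and 3. In each of these 6 fits the log2 fold change lay from 1.19 to 1.48.

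Within a library the proportion of these neighbouring enzymes does not depend on scaling. For every 100 reads of Shmt2 there were 33.6, 39.5 and 31.6 reads of Mthfd2 in KO 1, 2 and 3, against 9.27, 11.2 and 9.39 in control 1, 2 and 3. The means were 34.9 ± 4.13 in knockout and 9.97 ± 1.10 in control (SD, n = 3 libraries each). The genotypes did not overlap, and a two-sided exact permutation test over the 6 libraries gave p = 0.1, the smallest that 3 libraries against 3 allow. This pair was chosen after its values had been seen. Mthfd2 was higher and Shmt2 lower in every knockout library than in any control library. The ratio therefore had to separate the genotypes and p had to be 0.1, so the test adds nothing to those levels.

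Of the 10 members, 3 had libraries that did not overlap between genotypes, Mthfd2 and Asns with knockout above and Shmt2 with knockout below. Among all genes tested the share without overlap was 30.9%, with 16.4% above and 14.5% below, so the members' count was at the background. No library was high for all members. KO 1, KO 2, KO 3 and control 1 were each highest for 2 members, control 2 for 1 and control 3 for 1, and control 3 was lowest for 4.

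**Figure D3:**
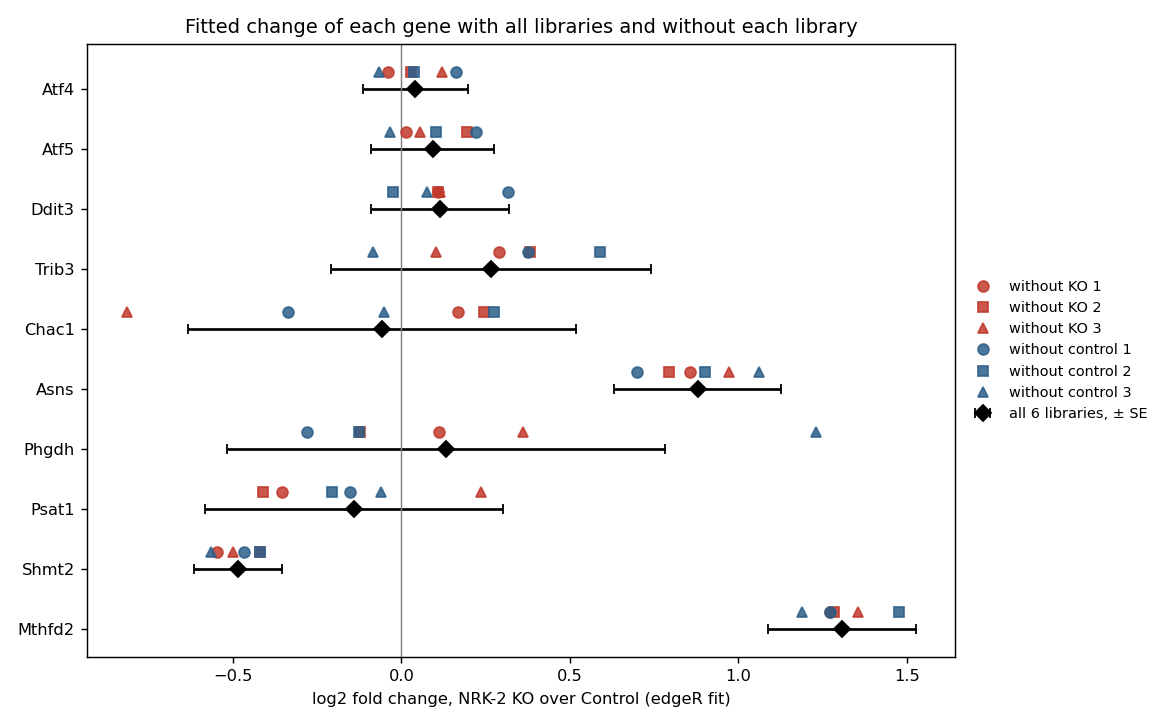
Log2 fold change, NRK-2 KO over Control, of each member in edgeR's fit with all 6 libraries (black diamond, bar ± SE) and in the fits that leave out 1 library (symbols above it, red for a knockout and blue for a control library). Mthfd2 stays between 1.19 and 1.48 in these fits, whereas Phgdh runs from -0.28 to 1.23 and Chac1 from -0.81 to 0.28.

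On the scale of deposited FPKM, which allows levels of different genes to be set side by side, the order of the members was nearly the same in both genotypes. In knockout it ran from Atf4 over Ddit3 (13.8 ± 0.62 FPKM), Shmt2 (13.5 ± 0.836 FPKM) and Atf5 (9.91 ± 0.985 FPKM) to Phgdh, Asns, Mthfd2, Psat1, Chac1 and Trib3. In control Shmt2 (17.6 ± 0.567 FPKM) came before Ddit3 (11.9 ± 2.68 FPKM), and Psat1 came before Asns and Mthfd2 (SD, n = 3 libraries each). Ddit3 and Shmt2 overlapped in the knockout libraries and did not in the control libraries. Mthfd2, at 5.23 ± 0.489 FPKM in knockout, lay beside Asns at 5.61 ± 0.915 FPKM, and at 1.95 ± 0.286 FPKM in control it lay beside Chac1 at 1.91 ± 0.785 FPKM. These neighbours did not differ beyond their spread.

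Transcripts of 5 members were divided among RefSeq variants, by a counting method not given in the sources used here. Of Atf5 reads, the share given to variant 1 was 16.5%, 31.0% and 21.2% in KO 1, 2 and 3 and 26.0%, 54.6% and 0% in control 1, 2 and 3. The rest, from 45.4% in control 2 to 100% in control 3, went to an entry that RefSeq numbers as non-coding. The summed Atf5 levels above take in both entries. Control 3, with 0 of 332 reads (a count of 0 allows up to 3 reads), and control 2 thus stood at opposite ends within a genotype. Psat1 variant 2 had 78 reads in KO 1, which were 23.5% of the gene's reads there, and at most 2 reads in any other library. Shmt2 variant 2 took 20.1%, 20.1% and 26.7% in KO 1, 2 and 3 and 34.3%, 19.9% and 23.6% in control 1, 2 and 3. Ddit3 variant 2 took 8.83% to 11.8% in knockout and 8.94% to 11.9% in control, and all reads of Atf4 were given to variant 1. No share separated the genotypes.

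**Figure D4:**
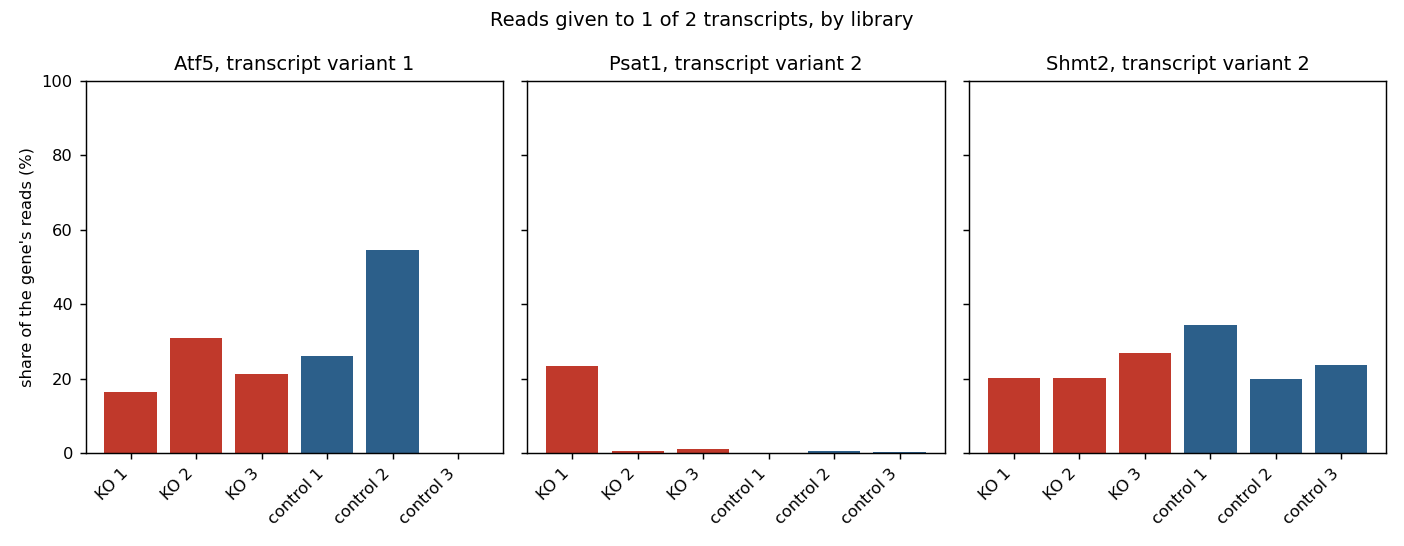
Share of the gene's reads (%) given to 1 of 2 RefSeq transcript variants of Atf5, Psat1 and Shmt2 in each library, NRK-2 KO in red and Control in blue; bars start at 0. Atf5 variant 1 runs from 0% in control 3 to 54.6% in control 2, and Psat1 variant 2 is above 2% in KO 1 alone (23.5%).

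The genes nearest to 2 members in pattern were looked up among genes averaging 10 CPM or more, by Pearson correlation of log2(CPM + 1) over the 6 libraries, as a description. The genes most like Mthfd2 were the potassium channel gene Kcnj15 (r = 0.999), Tspan6 (r = 0.997) and Cpd (r = 0.997), of which Kcnj15 and Tspan6 rose (adjusted p = 0.0152 and 0.013 by edgeR). Those most like Atf4 were S100a16 (r = 0.988), Bdnf (r = 0.985) and Lrrfip1 (r = 0.974), none of which passed. All share the 6 libraries and their scaling, and 9617 and 9616 genes were searched.

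The other genes of the pathway were read from the same fit, by lists. Of 122 listed symbols, which give Dele1 under 2 names, 121 were in the table and 114 were tested, of which 1 rose and 4 fell, with a median log2 fold change of -0.02. Of all genes tested, 2.61% rose and 1.09% fell, the shares to set beside the calls of each list below. Libraries did not overlap between genotypes for 49 of the 114, 21 with knockout above and 28 with knockout below. Among all genes tested the shares were 30.9%, 16.4% above and 14.5% below. With library totals alone as scaling, the median over all genes tested was 0.11, and the medians of the upstream and of the one-carbon list changed sign, to 0.04 and 0.02. Without control 3, 43 of 114 listed genes passed, in a fit in which 24.6% of all genes tested passed, and without any other single library 0 or 1 did.

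The list upstream of ATF4 holds kinases, phosphatase subunits and exchange factors that act on eIF2, and other genes such as Oma1 and Dele1. Its 1 faller among 15 tested was Oma1, and there were 0 risers (median log2 fold change -0.07). Oma1, a protease of the inner mitochondrial membrane that relays mitochondrial stress to ATF4, fell to 21.2 ± 1.81 CPM in knockout, against 38.6 ± 6.96 CPM in control (log2 fold change -0.86, adjusted p = 0.0421 by edgeR). 0610009O20Rik, a symbol RefSeq lists as a synonym of Dele1, encodes the protein that Oma1 cleaves in this relay. It was at 92.4, 59.1 and 85.8 CPM in KO 1, 2 and 3 and at 204, 192 and 115 CPM in control 1, 2 and 3, without overlap but short of the threshold (adjusted p = 0.069). Eif2ak2, the double-stranded RNA kinase PKR, was at 64.2 ± 9.15 CPM in knockout and 45.8 ± 2.93 CPM in control (adjusted p = 0.0906). Eif2b4, an exchange factor subunit, was at 25.8 ± 6.60 CPM in knockout and 38.9 ± 10.9 CPM in control (adjusted p = 0.21). On leaving out 1 library, Oma1 stayed past the threshold for control 3 alone (adjusted p otherwise up to 0.167).

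Relatives and partners of ATF4 of the bZIP class had 0 calls among 13 tested in edgeR's test, with 3 at an unadjusted p under 0.05 and 2 past DESeq2's test (median log2 fold change 0.15). Of all genes tested, 25.9% had an unadjusted p under 0.05 and 16.9% passed DESeq2's test, so neither count exceeded the background. Atf3, a stress-induced repressor, was at 18.4, 22.5 and 16.1 CPM in KO 1, 2 and 3 and at 6.87, 9.35 and 13.1 CPM in control 1, 2 and 3, without overlap (adjusted p = 0.0899 by edgeR). Cebpd, of the C/EBP family, was at 33.2 ± 3.05 CPM in knockout and 20.4 ± 6.95 CPM in control (adjusted p = 0.138). Cebpb and Cebpa, further C/EBP genes, overlapped between genotypes (adjusted p = 0.564 and 0.557).

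Of 36 other target genes of ATF4 tested, 1 rose and 1 fell (median log2 fold change 0.19), and 11 had every knockout library above and 4 every knockout library below the control libraries. The shares over all genes tested were 16.4% above and 14.5% below. Slc1a4, a transporter of serine and other small neutral amino acids, rose to 21.6 ± 2.55 CPM in knockout, against 8.07 ± 2.79 CPM in control (log2 fold change 1.42 with an SE of 0.26, edgeR's adjusted p = 0.0405). Gpt2, the mitochondrial alanine aminotransferase, fell to 31.3 ± 1.76 CPM in knockout, against 68.8 ± 1.83 CPM in control (log2 fold change -1.13, SE 0.10, adjusted p = 0.0093). Gdf15, a stress hormone, was at 5.97, 20.9 and 19.3 CPM in KO 1, 2 and 3 and at 3.43, 1.30 and 0.365 CPM in control 1, 2 and 3. All knockout libraries were higher, but the spread was wide and the gene did not pass (log2 fold change 3.19, SE 0.82, adjusted p = 0.0773). Slc7a11, the cystine transporter subunit, ran from 1.72 to 27.5 CPM in knockout and from 0 to 13.9 CPM in control (adjusted p = 0.657). Among the fits that leave out 1 library, Slc1a4 kept its call without control 3 (adjusted p = 0.0209) and lost it in the others (adjusted p up to 0.14). Gpt2 lost its call without KO 3 (adjusted p = 0.0575) and without control 2 (adjusted p = 0.0546) and kept it without any other library.

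The other serine and one-carbon genes had 0 calls among 37 tested in edgeR's test, with 11 at an unadjusted p under 0.05 and 6 past DESeq2's test (median log2 fold change -0.07). These counts lay near the background of 25.9% and 16.9% over all genes tested. Libraries did not overlap for 16 of the 37, 5 with knockout above and 11 with knockout below. Over all genes tested the shares were 30.9%, 16.4% above and 14.5% below. Tyms, thymidylate synthase, which spends a folate carbon on DNA synthesis, was at 15.7, 15.5 and 10.9 CPM in KO 1, 2 and 3 and at 6.87, 6.22 and 8.24 CPM in control 1, 2 and 3 (adjusted p = 0.0602 by edgeR). Sardh, the mitochondrial sarcosine dehydrogenase, was at 26.9 ± 5.31 CPM in knockout and 14.6 ± 2.07 CPM in control (adjusted p = 0.0563). Folr2, a folate receptor of macrophages, was at 12.3 ± 3.23 CPM in knockout and 27.0 ± 12.5 CPM in control (adjusted p = 0.104). Dld, a subunit shared by the glycine cleavage system and the ketoacid dehydrogenases, was at 161 ± 49.2 CPM in knockout and 305 ± 78.0 CPM in control (adjusted p = 0.109).

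Genes that make and break down glutathione, the tripeptide that Chac1 degrades, had 0 risers and 1 faller among 11 tested (median log2 fold change 0.05). Ggct, a cyclotransferase that releases oxoproline from gamma-glutamyl peptides, fell to 6.08 ± 0.582 CPM in knockout, against 12.0 ± 0.383 CPM in control (log2 fold change -0.97, adjusted p = 0.0368 by edgeR). Oplah, the oxoprolinase that opens this product, was at 54.1 ± 6.48 CPM in knockout and 83.1 ± 13.7 CPM in control (adjusted p = 0.075). Chac2, the relative of Chac1, was at 9.85 ± 2.40 CPM in knockout and 17.6 ± 5.95 CPM in control (adjusted p = 0.153).

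Chaperones and proteases of the mitochondrial unfolded protein response, which ATF5 is linked to, had 0 risers and 1 faller among 12 tested. All 12 had a negative log2 fold change (median -0.62), except that with library totals alone Yme1l1 was above 0. Of all 14466 genes tested, 7089 had a negative log2 fold change. Clpx, the ATPase of a matrix protease, fell to 91.0 ± 9.05 CPM in knockout, against 157 ± 20.9 CPM in control (log2 fold change -0.79, adjusted p = 0.0406 by edgeR). The chaperonin Hspd1 was at 225 ± 49.9 CPM in knockout and 440 ± 85.2 CPM in control, Hspa9 at 526 ± 114 CPM in knockout and 934 ± 208 CPM in control, and the cochaperone Dnaja3 at 117 ± 24.6 CPM in knockout and 202 ± 51.3 CPM in control (adjusted p = 0.0662, 0.0984 and 0.105). Of the 9 ventricular myocyte markers, 6 had every knockout library below the control libraries, Myh7 had every knockout library above them, Ttn and Ryr2 overlapped, and none passed the test. Their part in the levels of the chaperones and proteases was not tested. On leaving out 1 library, Clpx and Ggct stayed past the threshold for control 3 alone (adjusted p otherwise up to 0.164 and 0.154). Without control 3, 8 of the 12 fell, in a fit in which 12.9% of all genes tested fell, and without any other single library 0 did.

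**Figure D5:**
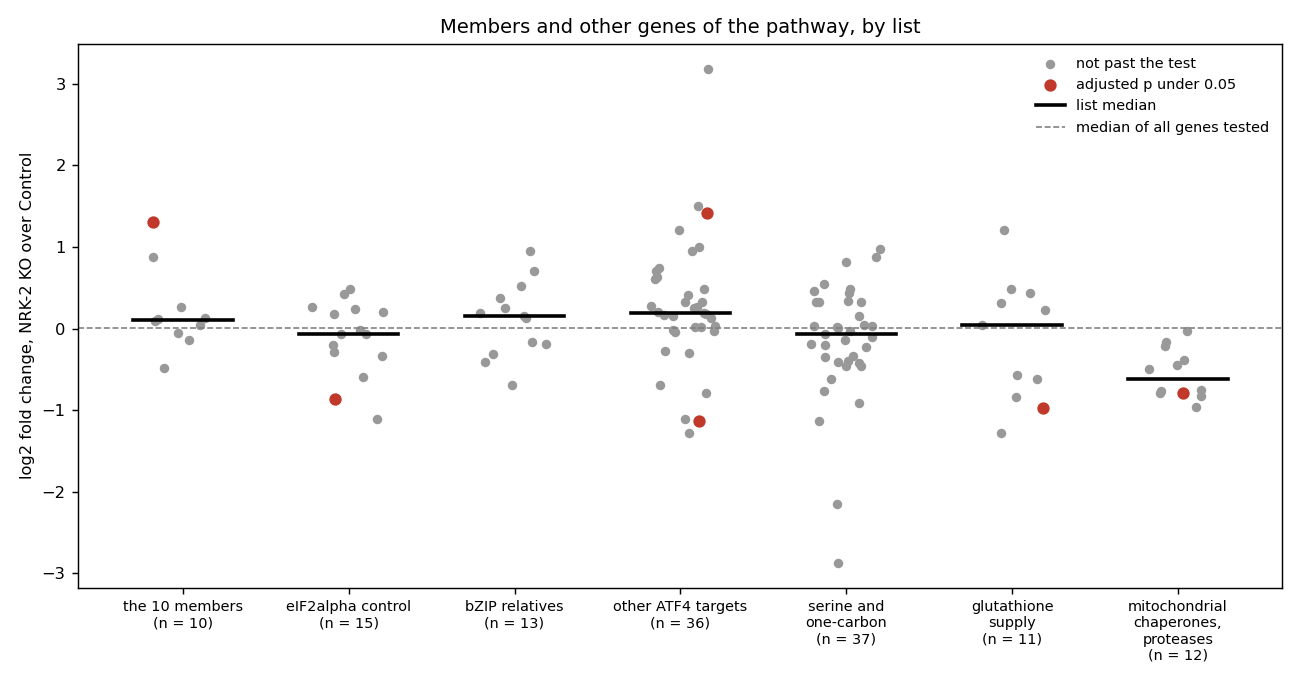
Log2 fold change, NRK-2 KO over Control, of the 10 members and of the tested genes of 6 pathway lists (1 point per gene, some genes on more than 1 list; red for adjusted p under 0.05), with the list median as a bar and the median of all genes tested as a dashed line. The member and target lists have 1 riser each, Mthfd2 and Slc1a4, and the 12 mitochondrial chaperones and proteases all lie below 0.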

How the data were processed

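Per the labels' protocols, total RNA of remote ventricle was made into stranded total RNA libraries (TruSeq). The authors deposited 1 table with 36780 RefSeq transcripts, giving read counts and FPKM for 3 libraries per genotype, while the labels list 2 samples. The submitters' processing notes name HISAT2, Bowtie2 and mm10. Counting program, annotation release and strand setting: not given in the sources used here.

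Here, deposited read counts were summed per symbol and tested with edgeR 4.0.16 (R 4.3.3): filterByExpr, TMM scaling and the quasi-likelihood test, knockout over control, with Benjamini-Hochberg adjustment over 14466 genes and a threshold of 0.05. SE is the absolute log2 fold change over the root of F. The deposited FPKM, the authors' own scaling by length and depth, were summed per symbol for levels and tested with limma 3.58.1 on log2(FPKM + 1) and log2(FPKM + 0.1). Alternatives were DESeq2 1.42.0, its size factors, library totals alone, other filters, a block for the library number and leaving out libraries. On simulated counts, 26 of 100 genes changed 2-fold, 73 of 98 changed 4-fold and 7 of 14038 unchanged genes were called. Each gene was drawn independently there, without deviations that many genes of a library share. These rates therefore need not hold for the libraries described here.

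Libraries of a genotype differed by more than counting noise: the median chi-square per gene over the 6 pairs within a genotype was 3.86 to 18.9, against 0.455 for repeat runs of 1 library. Separate preparations of 1 animal would not be told apart by this. Copies were sought with blastn 2.17.0 in GENCODE M21. The members and lists were chosen with earlier results of these data known. From each list, called genes were named and then the largest absolute log2 fold changes among genes averaging 5 CPM or more, up to 4 genes.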

Additional observations from a re-analysis of the deposited data

How the results depend on the processing

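The count of called genes, 535 with all libraries, depended on the method. It was 2445 by DESeq2's Wald test (45.6% of them risers, against 70.7%), 864 and 807 by limma on log2(FPKM + 1) and log2(FPKM + 0.1), and 423 to 688 with other scalings and filters. Leaving out 1 library gave 3 to 3628 called genes, with the lowest count without KO 3 and the highest without control 3. A further fit left out both control 1 and control 2, which have atrial light chain reads. KO 1, with Myl7 at 127 CPM, has them too and stayed in. That fit keeps 1 control library, control 3, which was highest for adipocyte and B cell markers. Control 3 is assumed there to vary like the knockout libraries, from which the spread of the fit comes. The log2 fold change in this fit was 1.58 for Mthfd2, 0.58 for Asns and -0.30 for Shmt2. The members called numbered 3 of 10 by DESeq2 (Asns, Mthfd2 and Shmt2), a test that 16.9% of all genes tested passed. On leaving out 1 library they numbered 3 without control 3, where 24.6% of all genes tested passed, and 0 otherwise. Of the 114 list genes tested with all libraries, 5 were called, and 9 with library totals alone, where 535 and 633 of all 14466 genes were called. List genes called numbered 30 by DESeq2, and 13 and 12 by limma, where 864 and 807 of all 14466 genes were called. They numbered 0 to 43 on leaving out 1 library, with 43 without control 3.

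The labels do not say that library numbers pair the genotypes. Same-numbered libraries deviated from their means with correlations of 0.238, -0.238 and -0.302. Pairs of unlike number ran from -0.423 to 0.507. With 3 libraries per genotype these correlations depend on each other and cannot settle whether the numbers pair. With a replicate block, 6 genes, 0 members and 0 list genes were called, and Mthfd2 had a log2 fold change of 1.32 (adjusted p = 0.136 by edgeR).

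The direction of Mthfd2, Asns and Shmt2 held in all alternatives. The other 7 members changed sign in at least 1 alternative, as did Slc7a11 and Cebpa. Leaving out 1 library, or control 1 and control 2 together, gave log2 fold changes of -0.90 to 1.23 for Phgdh, -0.41 to 0.24 for Psat1, -0.81 to 0.28 for Chac1, -0.085 to 1.41 for Trib3, -0.026 to 0.32 for Ddit3, -0.066 to 0.29 for Atf4, -0.033 to 0.39 for Atf5 and -0.25 to 3.88 for Slc7a11. Cebpa was at -0.35 without control 1 and control 2. Chac1 was at 0.028 with library totals alone. The cause was not tested. Among the 10 members, Trib3 and Chac1 had the fewest reads, 25 to 151 a library, and Phgdh had the largest SE.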
